A study of Homo sapiens with 2 samples.

Results

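The genes described here are 45 genes that switch off or report on mitogen-activated protein kinase (MAPK) signalling, out of 25240 genes in the deposited tables. They were chosen by name, with earlier results of these data known. The 15 feedback genes comprise 10 dual-specificity phosphatases (DUSP) and 5 Sprouty (SPRY) and SPRED genes. The 26 immediate-early genes comprise the AP-1, EGR, NR4A, KLF and IER families with BTG2, ZFP36, ZFP36L1, CYR61, CTGF and SRF. The other 4 are the PEA3 group of ETS factor genes (ETV1, ETV4, ETV5) and PHLDA1, which ERK signalling is known to induce.

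RNA was sequenced from T47D, an established line of luminal A breast cancer cells. One culture (shNT) carried a hairpin that targets no gene, and the other (shRON) a hairpin directed at RON, the receptor tyrosine kinase that MST1R encodes. Both were chosen with puromycin at 5 ug/mL and then held at 1 ug/mL, in high-glucose DMEM containing 10% serum. The labels say neither how many hairpins were used nor whether each culture was a pool or 1 clone. The name of the control's table holds WT, short for wild type, while the control's label names the hairpin and was followed. Each group is 1 library without a replicate, so p-values cannot be had, and every difference describes these 2 libraries, whatever separates them.

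Receptor tyrosine kinases such as RON signal through RAS, RAF and MEK to the kinase ERK. Within minutes, active ERK, JNK and p38 bring about transcription of immediate-early genes, which need no new protein to start and whose messengers are short-lived. Some of the induced proteins, among them DUSP phosphatases and SPRY and SPRED proteins, then damp the kinases that induced them, and their messengers are widely read as a record of recent signalling. Serum response elements (SRE, bound by SRF) and cyclic AMP response elements (CRE, bound by CREB and ATF proteins) are well known control sequences of such genes.

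Windows of 250 bases before the annotated starts show these elements in 8 of the 36 members with an entry in the RefSeq promoter table. The other 9 had no entry and were not searched: DUSP4, DUSP5, ETV4, ETV5, FOSL1, NR4A2, KLF10, IER3 and CYR61. They are shown because elements of these kinds are known entry points of MAPK and cyclic AMP signals into immediate-early genes. Whether each match works in its gene was not tested. Each line gives 30 bases around a match, 5′ to 3′ on the gene's strand, with the matched element in capitals. The coordinates are of GRCh37, the sequence of hg19, found by exact match of the whole window. The MAFF and SRF matches lie inside the span of deposited transcripts, which start 62 and 87 bases before the RefSeq starts. For EGR2 that distance is 2801 bases for the 2851-base transcript alone, and its other deposited transcripts start at the RefSeq start.
ZFP36L1, CRE, chr14:69260167-69260196, minus strand: agtggaatgagTGACGTCAcagccgcgctc
MAFF, CRE, chr22:38597936-38597965, plus strand: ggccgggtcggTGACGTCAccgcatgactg
DUSP1, CRE, chr5:172198305-172198334, minus strand: ggcagggcgggTGACGTCAccgccccgtca
DUSP8, CRE, chr11:1593601-1593630, minus strand: ccgggctccgcTGACGTCAcctgcccccga
DUSP8, CRE, chr11:1593557-1593586, minus strand: ttggctgcaggTGACGTCAggggctttttt
JUND, CRE, chr19:18392614-18392643, minus strand: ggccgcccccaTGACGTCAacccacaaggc
EGR1, SRE, chr5:137801053-137801082, plus strand: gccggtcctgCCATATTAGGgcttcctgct
EGR1, SRE, chr5:137801075-137801104, plus strand: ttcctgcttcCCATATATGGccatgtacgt
EGR2, SRE, chr10:64576178-64576207, minus strand: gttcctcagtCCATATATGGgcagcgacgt
SRF, SRE, chr6:43138977-43139006, plus strand: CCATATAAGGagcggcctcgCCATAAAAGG

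The search took TGACGTCA for CRE, TGACTCA for AP-1, GCGTGGGCG for EGR and the CArG box by its name for SRE, on both strands. Neither of the AP-1 and CRE strings contains the other. CRE was found in 5 of 53 windows of the members (9.43%) and in 1.64% of all 34788 windows of that length. SRE was found in 3 of 53 (5.66%), and in 1.17% of all. AP-1 was in 0 of 53 against 4.21% of all windows, and EGR in 0 against 0.722%. A match describes letters only, and a window without one says nothing of the factor.

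The whole window is given for ZFP36L1, the immediate-early member with the largest log2 ratio of FPKM + 1. It is also given for EGR1, which held 2 SRE matches and was near 0 in both libraries. That of ZFP36L1 is chr14:69260134-69260383 on the minus strand and lies wholly upstream of the deposited transcript. That of EGR1 is chr5:137800918-137801167 on the plus strand.
ZFP36L1: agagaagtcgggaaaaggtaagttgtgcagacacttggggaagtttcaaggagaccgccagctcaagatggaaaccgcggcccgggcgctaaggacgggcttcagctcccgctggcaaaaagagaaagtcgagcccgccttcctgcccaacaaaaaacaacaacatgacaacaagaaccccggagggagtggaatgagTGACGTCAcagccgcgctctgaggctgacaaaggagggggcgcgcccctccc
EGR1: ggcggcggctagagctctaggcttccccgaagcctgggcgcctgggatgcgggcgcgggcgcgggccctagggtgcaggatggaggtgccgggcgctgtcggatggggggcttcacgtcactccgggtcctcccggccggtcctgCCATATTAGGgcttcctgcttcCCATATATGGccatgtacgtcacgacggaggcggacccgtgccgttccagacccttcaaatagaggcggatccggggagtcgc

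Levels are in FPKM, fragments per kilobase of transcript scaled to the library's depth. MST1R itself had 12.1 FPKM with the control hairpin and 9.10 with the RON hairpin, which is lower by less than 1.5-fold. About 11900000 fragments lay behind the shNT values and 11500000 behind those of shRON, estimated from coverage. All 9 luminal markers were present, and their sum, mostly keratins such as KRT8 (3839 and 2634 FPKM), was 8781 and 6516. Of the 9, PGR (76.7 and 35.1 FPKM), CDH1 (162.9 and 100.1) and ESR1 (36.7 and 23.7) were lower by 1.5-fold, GATA3 was at 222.7 and 268.5 FPKM, and EPCAM and FOXA1 had log2 ratios of 0.05 and 0.01. Of 7 immune markers, PTPRC, CD3E, LYZ and TYROBP were listed at 0 in both, and the sum was 1.83 and 6.85, carried by CD68 (1.37 and 5.84). The 7 fibroblast markers summed to 4.14 and 5.86 FPKM, mostly COL1A1 (3.95 and 4.27). COL3A1 was at 0.0103 and 1.53, and PDGFRA and PDGFRB were at 0. The 5 endothelial ones summed to 7.22 and 7.66, mostly ENG (7.21 and 7.65), with PECAM1, VWF and KDR at 0. The 6 basal ones summed to 8.65 and 13.6. Of these, ACTA2 was lower (7.25 and 6.14) and KRT17 higher (0.523 and 5.54), while KRT5, KRT14, TP63 and MYLK were under 1 FPKM in both. The part of these shifts in the results below was not tested.

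Most members that could be measured were somewhat higher in the shRON library, and a minority by much. A gene counted as measured when either library gave it 1 FPKM or above, which left 12482 genes and 30 of the 45 members. The log2 ratio is that of FPKM + 1 in shRON over shNT, a scale that understates differences of low genes. The members and the size rules were chosen with earlier results of these data known, so the shares below are a description and test nothing. Of the 30 measured members, 24 had a ratio above 0 (80%), against 53.9% of all measured genes. By a size rule of 1.5-fold, 8 of 30 were higher, beside a background of 9.93% of all measured genes. In the other direction 1 of 30 was lower, where the background was 8.84%. At 2-fold, 3 were higher (background 3.31%) and 0 lower (2.17%). The median ratio of the measured members was 0.32 and that of all measured genes 0.04. DUSP2 reached 1 FPKM only in shRON and SPRY2 only in shNT, so the filter admitted each through the library where it was higher. With all 45 members taken, the median was 0.17. With a pseudocount of 5 in place of 1, the 8 and 1 became 5 and 0, where the background was 4.13% and 3.73%.

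**Figure D1:**
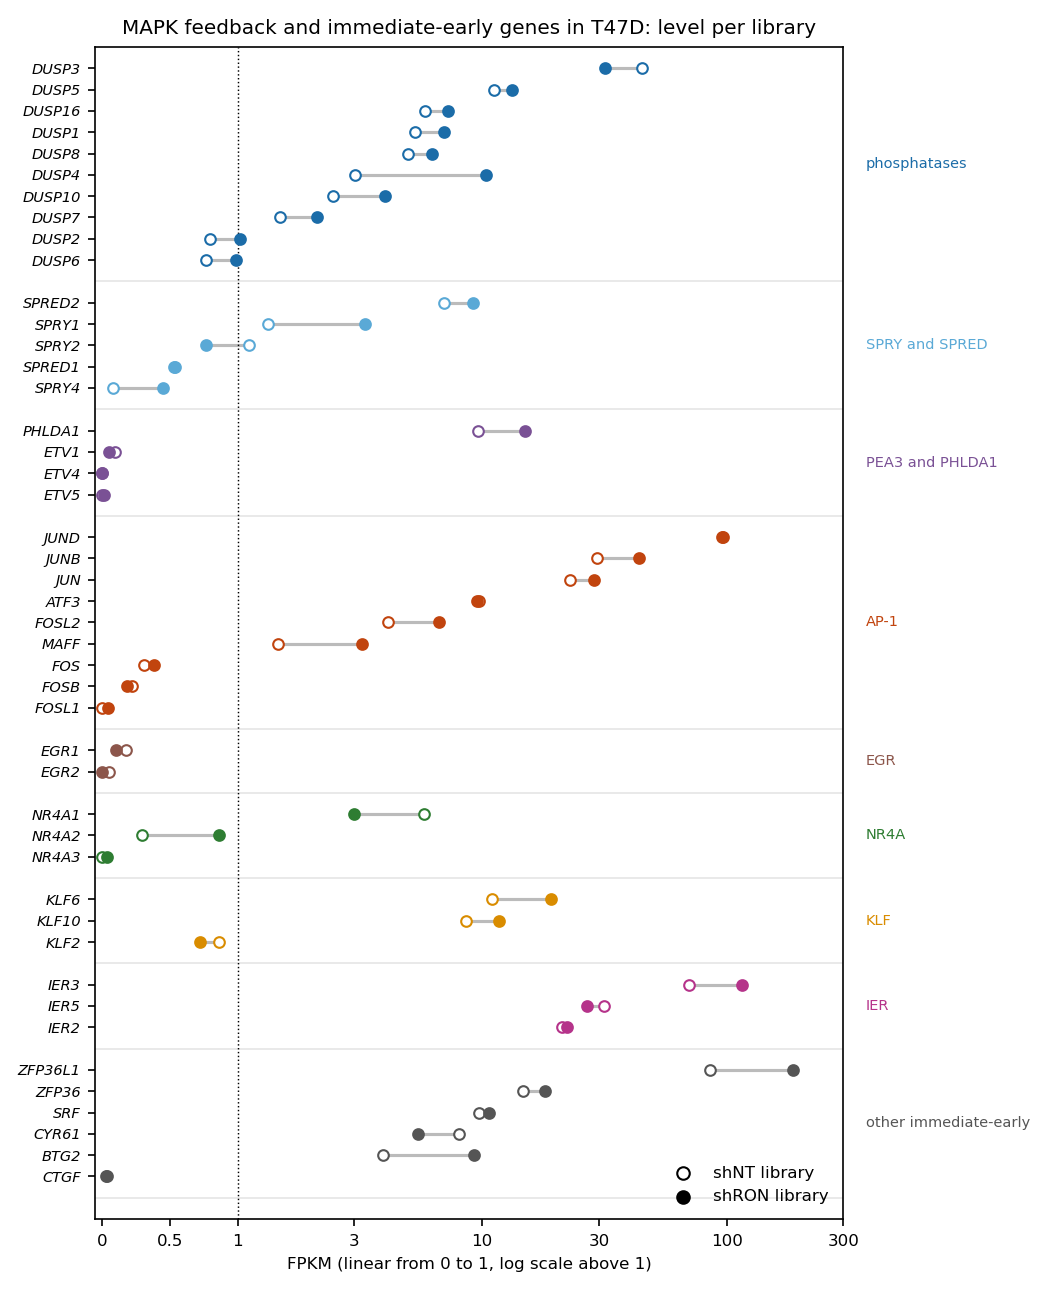
FPKM of each of the 45 members in the shNT library (open circles) and the shRON library (filled circles), by gene family, on an axis that is linear from 0 to 1 and logarithmic above. The dotted line marks 1 FPKM, and 15 members lie below it in both libraries, among them FOS, EGR1 and the 3 ETV genes.

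Among the nuclear phosphatases that ERK signalling induces, DUSP4 differed most. It encodes a nuclear enzyme that dephosphorylates ERK and JNK. DUSP4 was at 3.02 FPKM for shNT and 10.4 for shRON, a log2 ratio of 1.51 and the largest of the 30 measured members. Its FPKM ratio was 3.45 (95% interval 2.80 to 4.28, from an estimated 117 and 385 fragments). These intervals are approximate and hold counting error alone, without the variation from culture to culture. DUSP4 maps to chromosome 8 (29193611 to 29208185 of hg19, minus strand). Nearly all of its signal, 98.7% and 97.4%, was given to the 2498-base transcript.

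The other nuclear phosphatases of this kind differed little. DUSP1, an immediate-early gene for a phosphatase of p38, JNK and ERK, was at 5.28 FPKM for shNT and 7.0 for shRON (log2 ratio 0.35). DUSP5, whose product acts on ERK alone, was the most abundant of the inducible phosphatases in both libraries, at 11.2 and 13.3 FPKM (0.23). DUSP2 was near the filter, with 0.793 and 1.02 FPKM (0.17). None of the 3 reached 1.5-fold, and the interval of the FPKM ratio of DUSP2, 0.692 to 2.41, holds 1.

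DUSP6 and DUSP7 encode the cytoplasmic phosphatases of ERK, and DUSP6 is the feedback gene most often used as a readout of ERK activity. DUSP6 was scarce, at 0.765 FPKM for shNT and 0.987 for shRON, so it stayed under the filter in both. Its FPKM ratio of 1.29 rested on an estimated 32 and 42 fragments, with an interval of 0.795 to 2.11. DUSP7 was at 1.48 and 2.10 FPKM (log2 ratio 0.32). At this depth no difference of DUSP6 was detectable.

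The phosphatases directed at JNK and p38 were all slightly higher in shRON. DUSP10 was at 2.46 and 4.01 FPKM, with a log2 ratio of 0.53 and an FPKM ratio of 1.63 (interval 1.25 to 2.13). DUSP8 was at 4.98 and 6.25 FPKM (0.28). DUSP16 was at 5.82 and 7.25 FPKM (0.28). These 3 lay within 1.5-fold on the FPKM + 1 scale, although DUSP10 passed it with a pseudocount of 0.1.

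DUSP3 stood apart from its family in level and direction. It encodes a small phosphatase of ERK and JNK that lacks the kinase-binding domain of the others and is not known as an inducible feedback gene. At 45.1 FPKM for shNT and 31.7 for shRON it was the most abundant phosphatase, and the only measured one of 9 with a ratio below 0 (log2 ratio -0.50, FPKM ratio 0.703, interval 0.662 to 0.746). Because DUSP3 weighs so heavily, the FPKM of the 10 phosphatases summed to similar totals, 80.9 for shNT and 84.0 for shRON, while 8 of the 9 measured ones were higher.

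The SPRY and SPRED genes were low apart from SPRED2, and 2 of the 3 measured ones had a ratio above 0. SPRY proteins restrain RAS-ERK signalling downstream of receptor kinases, and SPRED proteins bring the RAS inhibitor neurofibromin to the membrane. SPRY1 was at 1.33 FPKM for shNT and 3.30 for shRON, a log2 ratio of 0.88. SPRY1 maps to chromosome 4 (124317956 to 124324910 of hg19, plus strand). Its FPKM ratio was 2.47 (interval 1.75 to 3.54, from 48 and 114 fragments), and its 2348-base transcript took 74.1% and 84.8% of the signal. SPRED2, the most abundant of the 5, was at 6.96 and 9.21 FPKM, with a log2 ratio of 0.36 (FPKM ratio 1.32, interval 1.17 to 1.5). SPRY2 was at 1.12 and 0.765 FPKM (-0.26), a difference whose interval holds 1.

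The remaining pair stayed under 1 FPKM. SPRY4 was at 0.0814 FPKM for shNT and 0.451 for shRON, and these values rested on an estimated 6 and 30 fragments. Its FPKM ratio of 5.54 had an interval of 2.32 to 15.7, but on the FPKM + 1 scale its log2 ratio was only 0.42. SPRED1 was at 0.538 and 0.529 FPKM. So 1 of the 5, SPRY1, was past 1.5-fold.

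The PEA3 genes gave almost no signal in these cells. They encode ETS transcription factors that are switched on by ERK in many tissues. ETV4 was listed at 0 in both libraries, which allows up to 3 fragments in each. ETV5 was listed at 0 for shNT and at 0.0170 FPKM for shRON, and ETV1 was at 0.0962 and 0.0472. PHLDA1, a pleckstrin homology-like gene induced by growth factors, was by contrast well expressed. It was at 9.57 FPKM for shNT and 14.9 for shRON, a log2 ratio of 0.59 that lay just past 1.5-fold, with an FPKM ratio of 1.56 (interval 1.43 to 1.70). PHLDA1 maps to chromosome 12 (76419227 to 76425556 of hg19, minus strand). FOSL2 was the nearest member on the other side of that bound.

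AP-1 is a dimer of FOS and JUN family proteins, and the JUN side held nearly all of the AP-1 signal. JUND, often described as the constitutive JUN, was the most abundant AP-1 gene and was level, with 96.0 FPKM for shNT and 96.4 for shRON (FPKM ratio 1.00, interval 0.949 to 1.06). JUNB was at 29.6 and 43.8 FPKM, with a log2 ratio of 0.55 and an FPKM ratio of 1.48 (interval 1.35 to 1.62). JUN was at 22.9 and 28.8 FPKM (0.32). Both inducible JUN genes were thus higher in shRON by less than 1.5-fold.

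The FOS genes were scarce. FOS was at 0.305 FPKM for shNT and 0.381 for shRON, FOSB at 0.217 and 0.183, and FOSL1 was listed at 0 and at 0.0419. FOS overlaps a noncoding gene in the tables, and strand was not known to be kept. FOSL2, the only FOS family gene above 1 FPKM, was at 4.11 and 6.64 FPKM, with a log2 ratio of 0.58 that fell just short of 1.5-fold and an FPKM ratio of 1.61 (interval 1.37 to 1.90). With a pseudocount of 0.1 its log2 ratio was 0.68, past 1.5-fold. The AP-1 messengers above 1 FPKM in both libraries were thus the 3 JUN genes, FOSL2, ATF3 and MAFF.

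ATF3 and MAFF encode basic leucine zipper proteins that pair with AP-1 or related factors. ATF3, a stress-induced repressor, was at 9.74 FPKM for shNT and 9.49 for shRON (log2 ratio -0.03). MAFF, a small MAF protein without an activation domain of its own, was at 1.46 and 3.23 FPKM (0.78), with an FPKM ratio of 2.21 (interval 1.58 to 3.13, from 51 and 117 fragments). MAFF maps to chromosome 22 (38597939 to 38612518 of hg19, plus strand). The 2 main MAFF transcripts went apart. The 2440-base transcript, whose deposited start lies inside the 30 bases shown above, ahead of the CRE, was at 0.489 FPKM for shNT and 2.45 for shRON. The 2224-base transcript, from a start further downstream, was at 0.973 and 0.779. Cufflinks divides reads between such transcripts by a model, so the split is less certain than the sum.

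**Figure D2:**
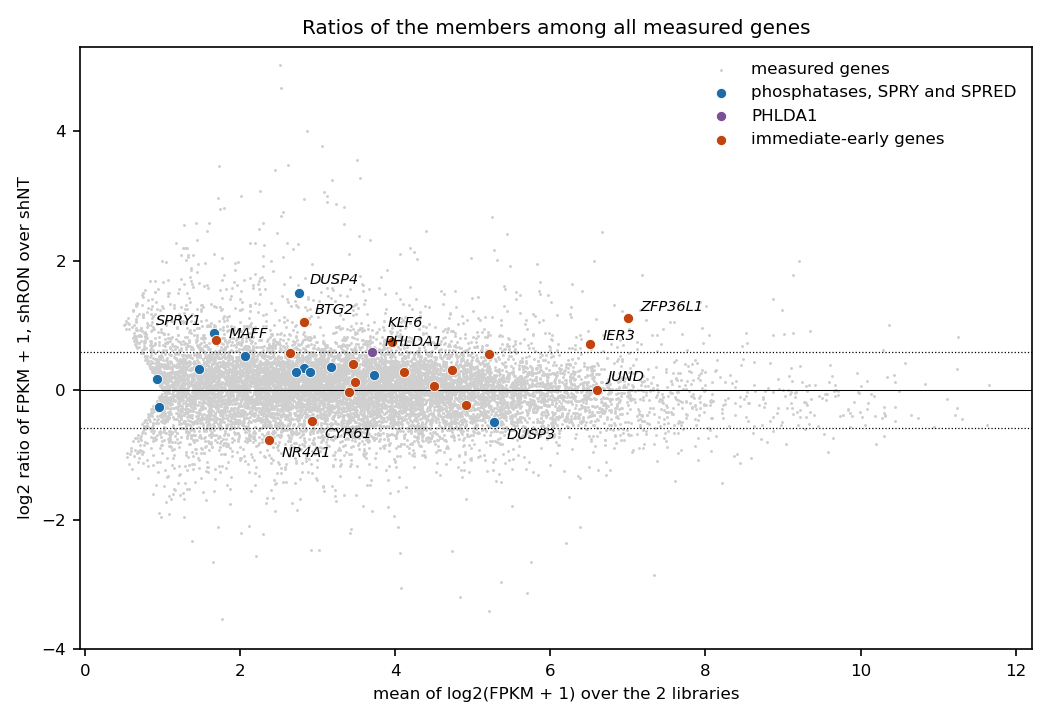
Log2 ratio of FPKM + 1 (shRON over shNT) against the mean log2(FPKM + 1) of both libraries for 12482 measured genes (grey) and the 30 measured members (coloured by block), with dotted lines at 1.5-fold. Of the members, 8 lie above the upper line and 1, NR4A1, below the lower line.

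EGR1 and EGR2 encode zinc finger factors that serum and growth factors induce through SRE. EGR1 was at 0.172 FPKM for shNT and 0.102 for shRON, from an estimated 7 and 5 fragments, and EGR2 was at 0.0470 and listed at 0. Neither library thus held a measurable EGR signal, and no difference was detectable at this depth.

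The NR4A genes, which encode orphan nuclear receptors, held the one measured member that was lower by 1.5-fold. NR4A1 was at 5.79 FPKM for shNT and 2.98 for shRON, a log2 ratio of -0.77. NR4A1 maps to chromosome 12 (52445191 to 52453287 of hg19, plus strand). Its FPKM ratio was 0.514 (interval 0.405 to 0.650, from 218 and 108 fragments), and nearly all of it, 96.7% in shNT, was assigned to the 2520-base transcript. NR4A1 and FOSL2 each overlap a further gene of the tables (LOC100506166 and FLJ31356), and without known strand their reads may be shared. NR4A2 went the other way from below the filter, at 0.291 and 0.861 FPKM. Its FPKM ratio was 2.96 (interval 1.62 to 5.74), from 15 and 45 fragments. NR4A3 was listed at 0 for shNT and at 0.0350 FPKM for shRON.

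Of the Krüppel-like factor genes, KLF6 was higher. KLF6 encodes a zinc finger activator that is induced by many stimuli. It was at 11.0 FPKM for shNT and 19.1 for shRON, a log2 ratio of 0.75 and an FPKM ratio of 1.74 (interval 1.59 to 1.91). KLF6 maps to chromosome 10 (3818188 to 3827473 of hg19, minus strand). Its 4662-base transcript took 88.4% and 84.5% of this. KLF10, known for its early induction by TGF-beta, was at 8.56 and 11.7 FPKM (0.41), and KLF2 was under the filter at 0.861 and 0.718.

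The 3 IER genes diverged. IER3, whose small product bears on survival and on ERK dephosphorylation, was at 70.4 FPKM for shNT and 115.5 for shRON (log2 ratio 0.71). Its FPKM ratio was 1.64 (interval 1.53 to 1.76). IER3 maps to chromosome 6 (30710976 to 30712327 of hg19, minus strand). IER2 was at 21.2 and 22.2 FPKM (0.06), and IER5 was at 31.4 and 26.7 (-0.23). Their intervals were 0.935 to 1.17 and 0.778 to 0.929.

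ZFP36L1 and BTG2, which encode regulators of mRNA decay, were at least 2-fold higher. ZFP36L1 binds AU-rich elements of short-lived messengers, many of immediate-early genes among them, and BTG2 recruits a deadenylase and restrains proliferation. ZFP36L1 was at 85.7 FPKM for shNT and 187.5 for shRON, a log2 ratio of 1.12. Its FPKM ratio was 2.19 with a narrow interval, 2.10 to 2.27, from 3692 and 7803 fragments. ZFP36L1 maps to chromosome 14 (69254375 to 69259785 of hg19, minus strand). BTG2 was at 3.94 and 9.25 FPKM, a log2 ratio of 1.05 (FPKM ratio 2.35, interval 1.95 to 2.84). BTG2 maps to chromosome 1 (203274664 to 203278730 of hg19, plus strand). The relative of ZFP36L1, ZFP36, which encodes tristetraprolin, was at 14.7 and 18.0 FPKM (0.28).

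CYR61 and CTGF encode matricellular proteins that respond to SRF and to YAP. CYR61 was lower, at 8.01 FPKM for shNT and 5.46 for shRON, but by less than 1.5-fold (log2 ratio -0.48, FPKM ratio 0.682, interval 0.564 to 0.824). CTGF was at 0.0308 and 0.032 FPKM, about 1 fragment in each, and it overlaps another gene of the tables. SRF itself was at 9.72 and 10.7 FPKM (0.12). Of the 3 members with an SRE match, EGR1 and EGR2 were thus near 0 in both libraries, while SRF, which encodes the factor, was expressed.

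By the 2 blocks, 2 of 12 measured feedback genes were past 1.5-fold and higher (16.7%), and 0 were lower, beside 9.93% and 8.84% of all measured genes. Of 17 measured immediate-early genes, 5 were higher (29.4%) and 1 was lower (5.88%), beside the same shares. The medians, 0.30 and 0.32, were alike, and both blocks spanned 0, from -0.50 to 1.51 and from -0.77 to 1.12. The difference between the blocks was not tested. The 5 genes with a CRE match, among the 36 searched, ran from JUND at 0.01 to ZFP36L1 at 1.12, with DUSP8, DUSP1 and MAFF between them.

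Immediate-early genes are known as compact genes, and these fitted that description. The span from start to end had a median of 4926 bases over the 26 immediate-early members, 13678 over the 15 feedback members and 23976 over all measured genes. Of the 26, 21 spanned under 10 kb (80.8%), beside 26.8% of measured genes. Their longest transcripts were of ordinary length, with a median of 2568 bases against 2762.

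The members lay on 18 chromosomes, and some stood among neighbours that differed between the libraries too. For each, the median log2 ratio of the 20 nearest measured genes on each side was taken, members left out. Over the 30 measured members it ran from -0.40 (ATF3) to 0.45 (KLF10), and 13 were past 0.2 in size. It was below -0.2 for ATF3, SPRY2 (-0.32), DUSP1 (-0.29), NR4A1 (-0.25), DUSP10 (-0.24) and BTG2 (-0.22). It was above 0.2 for KLF10, IER3 (0.31), FOSL2 (0.25), SRF (0.25), DUSP16 (0.23), SPRY1 (0.22) and DUSP4 (0.21). KLF10 was close to its region (0.41 against 0.45). IER3 and KLF6 (regional median 0.18) were above theirs by 0.39 and 0.56, under 1.5-fold, and NR4A1 was below by 0.53. BTG2, DUSP1, DUSP10, PHLDA1, DUSP5 and CYR61 went against their regions. With the regional median subtracted, BTG2 was at 1.28, DUSP10 at 0.77, PHLDA1 at 0.72 and DUSP1 at 0.64, and CYR61 at -0.68. The counts were then 8 higher and 1 lower, beside 8.14% and 6.34% of all measured genes in that setting, and 6 of the 8 were among those above.

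**Figure D3:**
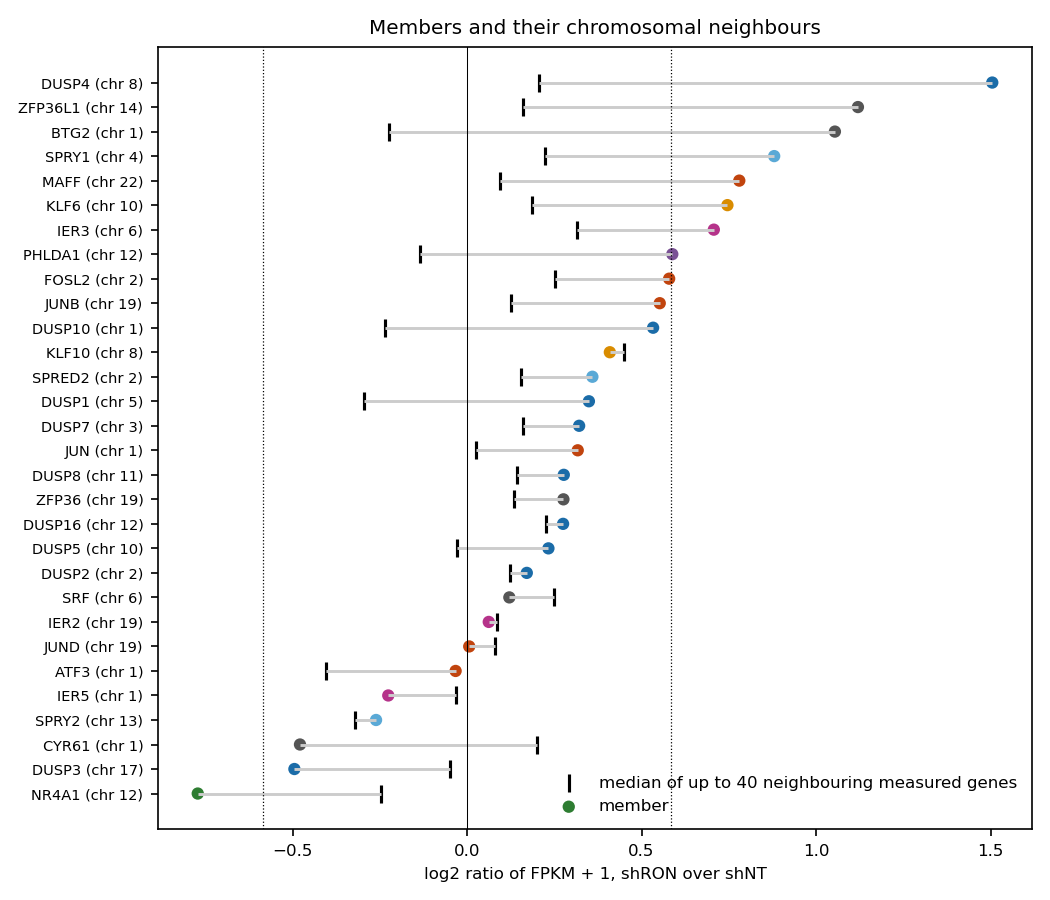
Log2 ratio of FPKM + 1 (shRON over shNT) of the 30 measured members (points, coloured by gene family as in the plot of levels) and the median ratio of up to 40 measured neighbours on the chromosome (bars), with dotted lines at 1.5-fold. Points lie above their bar for 22 members, and KLF10 lies close to its bar.

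Genes of the kinases upstream are set beside all measured genes, of which 9.93% were higher and 8.84% lower by 1.5-fold. Of 27 measured genes of the RAS-RAF-MEK-ERK core out of 30 listed, 1 was higher and 1 lower (3.70% each, median 0.06). GAB2, which encodes a docking adaptor, was at 6.83 FPKM for shNT and 12.8 for shRON (log2 ratio 0.82), and HRAS was at 29.6 and 16.9 (-0.77). Of 16 measured JNK and p38 genes out of 17, 1 was higher and 1 lower (6.25% each, near those shares), with a median of 0.24. MAPK8, which encodes JNK1, was higher (6.12 to 10.2 FPKM, 0.65). MAPK11, which encodes p38-beta, was lower (8.70 to 3.46 FPKM, -1.12). Of 11 measured genes for ternary complex factors, SRF cofactors and CREB or ATF proteins, 1 was higher (9.09%) and 0 lower, with a median of -0.02. It was ELK3, a ternary complex factor gene (1.19 to 2.58 FPKM, 0.71).

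Relatives of the members gave mixed counts, set here beside 9.93% higher and 8.84% lower of all measured genes. Of 10 measured further phosphatase, SPRY and SPRED genes out of 18, 0 were higher and DUSP28 was lower (3.44 to 1.58 FPKM, log2 ratio -0.78), with a median of 0.01. A further list held 18 measured relatives out of 23. They were mostly of the EGR, KLF, MAF, BTG and ZFP36 families, with IER5L and a few other leucine zipper genes such as BATF. Of these, 5 were higher (27.8%) and 1 was lower (5.56%), where 26.7% of the measured members were higher. The lower one, BATF (1.65 to 0.710 FPKM, -0.63), reached 1 FPKM only in shNT and is named for being alone, after its values were seen. KLF5 (1.01 to 6.28 FPKM, 1.85), the anti-proliferative gene BTG1 (35.4 to 81.4, 1.18), KLF4 (8.17 to 18.0, 1.05) and KLF3 (4.11 to 9.09, 0.98) had the largest ratios. These lists were chosen by name and, like the members, with earlier results of these data known.

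Genes known as outputs of the pathway diverged. Of 13 measured out of 20, 4 were higher (30.8%) and 1 lower (7.69%) by 1.5-fold, beside 9.93% and 8.84% of all measured genes. Of the measured members 26.7% were higher. The median of the output genes was 0.11. CDC42EP3 (2.29 to 7.39 FPKM, log2 ratio 1.35), EMP1 (1.77 to 5.91, 1.32), the growth factor gene VEGFA (24.7 to 55.0, 1.13) and the EGF receptor ligand gene EREG (0.435 to 1.97, 1.05) were higher. EREG reached 1 FPKM only in shRON. The lower one was CCND1, which encodes cyclin D1, with 38.9 FPKM for shNT and 19.0 for shRON (-0.999), likewise named for being alone.

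**Figure D4:**
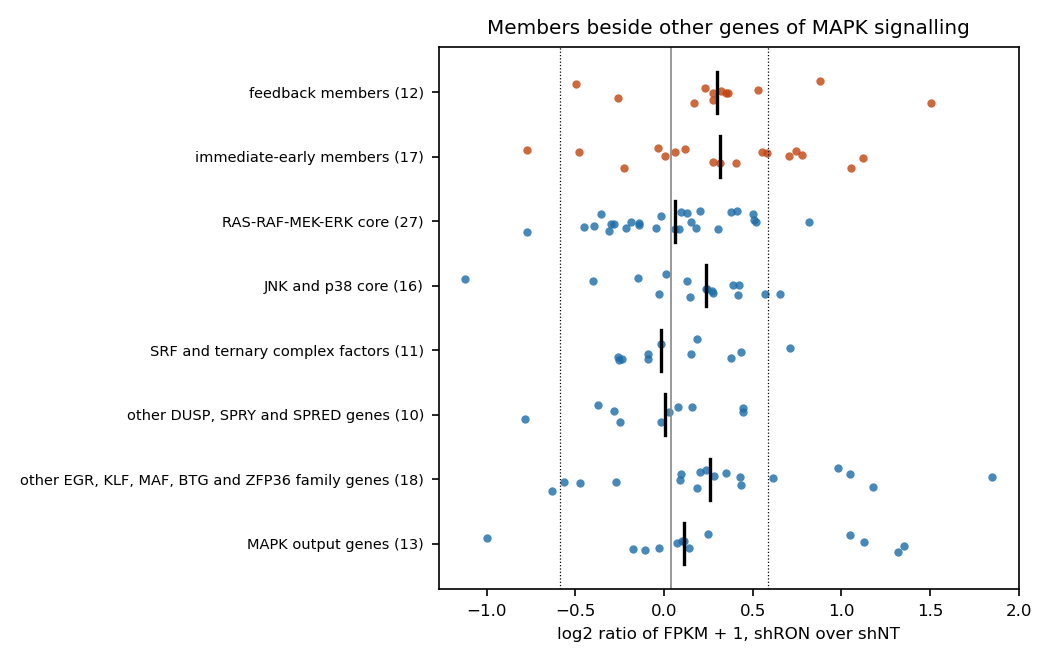
Log2 ratio of FPKM + 1 (shRON over shNT) of each measured gene of the 2 member blocks (orange) and of 6 further lists of MAPK signalling genes (blue), with the number of measured genes in brackets, the list median as a black bar, the median of all measured genes as a grey line and dotted lines at 1.5-fold. The medians of the member blocks are 0.30 and 0.32, and those of the other lists run from -0.02 to 0.26.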

How the data were processed

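Each library has 1 table of 37839 RefSeq transcripts with Cufflinks columns, per the file headers. The build is hg19, per the submitters' processing notes, which also name DESeq without a role, while an aligner or a Cufflinks version is named by no label or header. FPKM values were used as the authors deposited them, and no scaling between libraries is stated. The deposited coverage signal, the mean depth per base, was used only to estimate fragments: coverage times length, divided by the bases of 1 read pair (243.0 in shNT and 240.7 in shRON, the medians of products between 150 and 325 bases over single-transcript genes of 2000 bases or more). Only 34.7% and 35.1% of low values were within 0.1 of whole pairs, so the values were not turned back into reads or tested as counts.

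The tables list transcripts in different orders and were joined on the transcript ID. FPKM was summed per gene. Small RNA genes and the 2 genes with a failed transcript estimate were left out. The 75 transcripts of the members all had the status OK. Ratios used a pseudocount of 1 FPKM. Counting intervals are 95% Clopper-Pearson intervals, conditional on the summed fragments and scaled to the FPKM ratio. The members' loci overlapped GENCODE genes of the same current name on GRCh37 for 45 of 45. CYR61 is now named CCN1 and CTGF is now named CCN2. Promoter windows are RefSeq's, taken from a GRCh38.p14 table. The steps were tested on simulated data (Python 3.11.15, pandas 2.3.3, scipy 1.17.1). All members are named, and of the other lists up to 4 genes with the largest ratios past 1.5-fold, with BATF and CCND1 added later. Members, lists and size rules were chosen with earlier results of these data known.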

Additional observations from a re-analysis of the deposited data

How the results depend on the processing

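The counts and medians were recomputed under 9 alternatives: pseudocounts of 0.1 and 5, a filter of 5 FPKM or none, upper-quartile scaling, subtraction of the median ratio, of the trend with level or of regional medians, and the most abundant transcript only. With a pseudocount of 5, which shrinks low genes by construction, 5 members were higher and 0 lower, beside 4.13% and 3.73% of all measured genes. Of 12 feedback genes 1 was then higher, with a median of 0.18, and of 17 immediate-early genes 0 were lower. With 5 FPKM, which tests fewer genes, 1 of 7 feedback genes was higher, beside 9.02% of all genes in that setting. With no filter the median over all 45 members was 0.17 and over immediate-early genes 0.072. With regional medians subtracted, 4 of 12 feedback and 3 of 17 immediate-early genes were higher (8.14% of all measured genes were) and the feedback median was 0.18. The other 70 values kept within 1.5 times the count or 0.1 of the median. Among them, a pseudocount of 0.1 gave 10 members higher, DUSP10 and FOSL2 being added, and 1 lower. The background was then 13.5% and 11.8% of all measured genes. DUSP4, BTG2 and ZFP36L1 were past 1.5-fold under 9 of 9 alternatives, KLF6 and IER3 under 8, SPRY1, MAFF and NR4A1 under 7 and PHLDA1 under 6. No paired analysis was possible because each group has 1 library. Depth limits the 15 members under 1 FPKM, and differences between cultures cannot be told apart from the hairpin's effect.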
